A study of Mus musculus with 6 samples.

Results

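The genes that carry the signal of IFNγ into the nucleus, from its receptor to the transcription factor Irf1, were examined in RVP3 cells with and without DAC/TSA. RVP3 is a murine tumour line of C57BL/6 background, grown in vitro, which by the study's account does not react to IFNγ. Total RNA of 3 cultures treated with DAC/TSA and of 3 untreated control cultures was hybridised to Illumina Mouse WG-6 arrays. Treated cells received 3 µM DAC (5-aza-2′-deoxycytidine, an inhibitor of DNA methyltransferases) for 48 h and, for a further 24 h, 30 ng/ml TSA (trichostatin A, an inhibitor of histone deacetylases). The control cells are labelled as having received nothing, and no group that received solvent, DAC alone, TSA alone or IFNγ was analysed here. All cultures came from a single cell line, so that the p-values measure the spread between its cultures only.

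The 9 genes of the axis were chosen by name: the receptor chains Ifngr1 and Ifngr2, the kinases Jak1 and Jak2, the transcription factors Stat2, Irf1 and Irf9, and the inhibitors Socs3 and Ptpn2. All probes annotated with these symbols in the deposited log2 table were taken, which gave 15 probes of 8 genes, out of 8734 named genes and 16760 probes tested. Jak1 was not analysed here. The log2 table holds only probes detected on at least 2 of 3 arrays of a group, so all 15 passed the filter on detection by construction. Probes of these genes outside it, if any, carry no name here. Of the 15 probes, 3 (Stat2, the dimmer probe of Jak2 and the dimmer probe of Irf9) passed the filter only through the control arrays. A probe that passes the filter through a single group was favoured by the filter to read higher in that group, but it need not pass the test. The dimmer Jak2 probe did not pass it.

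IFNγ binds a receptor of Ifngr1 and Ifngr2 chains, to which the Janus kinases Jak1 and Jak2 are attached. The kinases start a chain of phosphorylation that leads to a palindromic DNA element called GAS. Irf1 is among the first genes that IFNγ switches on, and its product in turn activates genes of antigen processing and MHC class I. Stat2 and Irf9 are subunits of the complex that answers type I interferons and binds another element, ISRE. Socs3 is an SH2 protein that is induced by STATs and blocks the kinases, and Ptpn2 is a tyrosine phosphatase that removes phosphate from Janus kinases and STATs.

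The promoters in which the letters of these elements were found are given first, since they lie beside the genes whose levels follow. Windows from 250 bases before to 50 bases after an annotated start were read for 8 of the 9 genes (10 windows, RefSeq, GRCm38.p6). Ptpn2 was not among them. GAS was searched as TTCNNNGAA and ISRE as a pair of GAAA runs with any 2 bases between them, on both strands, and the matches found did not overlap. Only Irf1 and Socs3 held GAS letters among these 10 windows and only Stat2 held ISRE letters, against 8.30% and 3.44% of all 32851 windows of the same length for GAS and ISRE. The 250 bases before the start are shown 5′ to 3′ with the match in capitals. The Irf1 stretch lies at chr11:53769764-53770013 on the plus strand, the Socs3 stretch at chr11:117969367-117969616 on the minus strand and the Stat2 stretch at chr10:128270248-128270497 on the plus strand.
Irf1: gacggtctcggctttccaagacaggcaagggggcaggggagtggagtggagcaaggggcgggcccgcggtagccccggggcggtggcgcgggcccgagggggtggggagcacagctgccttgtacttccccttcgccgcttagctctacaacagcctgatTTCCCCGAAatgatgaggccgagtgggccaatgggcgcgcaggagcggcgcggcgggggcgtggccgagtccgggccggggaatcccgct
Socs3: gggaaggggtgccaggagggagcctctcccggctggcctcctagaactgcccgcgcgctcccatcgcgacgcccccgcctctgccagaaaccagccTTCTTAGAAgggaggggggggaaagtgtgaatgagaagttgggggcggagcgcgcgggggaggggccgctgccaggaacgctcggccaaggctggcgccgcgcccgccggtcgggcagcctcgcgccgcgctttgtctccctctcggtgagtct
Stat2: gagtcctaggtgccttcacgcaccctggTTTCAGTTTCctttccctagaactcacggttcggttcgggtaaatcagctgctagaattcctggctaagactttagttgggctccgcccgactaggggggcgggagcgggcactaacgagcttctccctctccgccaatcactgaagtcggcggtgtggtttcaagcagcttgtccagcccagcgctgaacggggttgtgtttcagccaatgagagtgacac
Counted from the annotated start, with -1 as the base just before it, the GAS letters begin at -90 in Irf1 (TTCCCCGAA) and at -154 in Socs3 (TTCTTAGAA), and the ISRE letters begin at -222 in Stat2 (TTTCAGTTTC, on the opposite strand). A match of letters is a description of the window only, and binding was not measured. CpG dinucleotides, at which DNA is methylated, numbered 32 in this Irf1 window, 31 in the Socs3 window, 31 in the Ifngr2 window, 44 in the Jak2 window and 22 in the Stat2 window, against a median of 7 over all windows. The Ifngr1 window held 14. The windows of Irf9 held 9 and 1. Methylation was not measured in these samples.

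The axis was not moved in a single direction by DAC/TSA. Irf1 was lower by all 4 of its probes, Jak2 and Ifngr2 were lower by their brightest probe, and Stat2 was lower at the edge of detection. The inhibitors Socs3 and Ptpn2 were higher, and Ifngr1 did not pass the test. By the brightest probe of each gene, 2 of 8 genes were higher and 4 lower at an adjusted p under 0.01 (limma), and the median log2 change was -0.35. Without Stat2, which entered only through the control arrays, 2 of 7 genes were higher and 3 lower. Over all named genes 27.0% were higher and 25.8% lower, with a median of -0.02, so that the treatment changed 52.8% of them and a call is not particular to the axis. Over the 15 probes 2 were higher and 8 lower, against 22.4% higher and 23.4% lower of all probes tested, 45.8% in all. The 15 came from the 15131 probes detected on at least 2 of 3 arrays of a group. A fit of those alone called 7612, 3701 higher and 3911 lower. Fewer cells with a transcript and less of it per cell cannot be told apart in such bulk RNA. Median scaling set each array by the median of all 45281 probes, of which 29.2% to 33.3% were detected on an array. Under it 61.2% of all called probes were higher, against 48.8% in the reported fit. Its median SE was 0.147, against 0.098. Groups did not overlap for 14 of 15 probes, and for 62.6% of all 16760 probes tested, a wider set than the one the 15 came from. Signals below are on the log2 scale after quantile normalisation, with each array in the order of its replicate number, and errors are SD for signals and SE for changes (n = 3 per group).

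**Figure D1:**
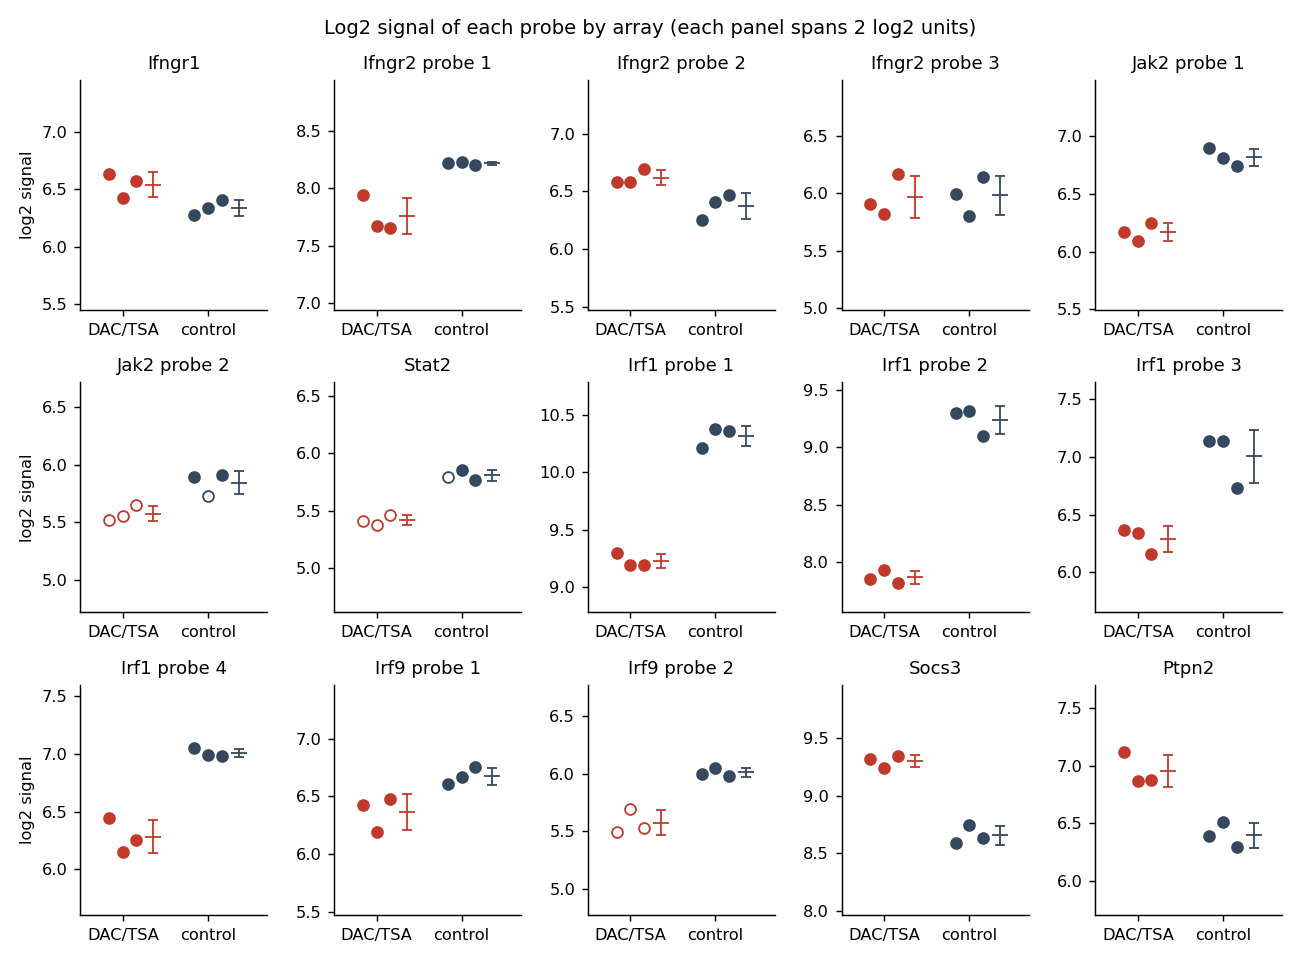
Log2 signal (vertical axis) of each of the 15 probes on the 3 DAC/TSA arrays (red) and the 3 control arrays (dark blue), with the mean and SD beside the points. Open points were not detected at a detection p-value of 0.01. All 4 Irf1 probes lie lower and Socs3 and Ptpn2 higher on the DAC/TSA arrays without overlap, whereas Ifngr2 probe 3 overlaps.

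Of the receptor chains, Ifngr1, which binds the ligand, had log2 signals of 6.63, 6.42 and 6.57 on the DAC/TSA arrays, against 6.27, 6.33 and 6.40 on the control arrays. The groups did not overlap, but by a margin of only 0.02, and the change of 0.20 ± 0.09 (95% interval 0.00 to 0.40) did not pass the test (adjusted p = 0.0746, limma). The BeadStudio signals before normalisation overlapped, at 86.1 to 110.9 units in DAC/TSA cells and 71.6 to 87.9 units in control cells. Ifngr1 was detected on all 6 arrays.

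Ifngr2, the chain that brings Jak2 to the receptor, was measured by 3 probes that did not give the same answer. The brightest had log2 signals of 7.94, 7.67 and 7.66 in DAC/TSA cells, against 8.22, 8.23 and 8.20 in control cells, and was 1.37-fold lower (log2 change -0.46 ± 0.10, adjusted p = 0.00139, limma). All 3 treated arrays were below all control arrays, which lay within 0.03 of each other. The second probe had 6.58, 6.58 and 6.69 in DAC/TSA cells, against 6.25, 6.41 and 6.47 in control cells. Its change was in the other direction (0.24 ± 0.09) and did not pass the test (adjusted p = 0.0382, limma), although it passed with the replicate number as a block (adjusted p = 0.00905). Probe 3, the dimmest, overlapped between groups (5.91, 5.82 and 6.17 in DAC/TSA cells, 6.00, 5.80 and 6.14 in control cells), with a log2 change of -0.01 ± 0.12. The log2 difference between the first and the second probe was 1.36, 1.09 and 0.96 on the DAC/TSA arrays, against 1.97, 1.82 and 1.74 on the control arrays. These did not overlap, as a description of a pair of probes compared after their changes were seen. All 3 probes are annotated with the same transcript (NM_008338). The direction for Ifngr2 as a gene therefore rests on the probe chosen. The call of the brightest probe was lost under median scaling (adjusted p = 0.074, limma) and without DAC/TSA replicate 2 (adjusted p = 0.0102).

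The kinase Jak2, which phosphorylates the receptor and the STATs, had log2 signals of 6.17, 6.09 and 6.25 in DAC/TSA cells, against 6.90, 6.81 and 6.74 in control cells by its brighter probe. The groups were 0.50 apart at their closest. Jak2 was 1.57-fold lower by this probe (log2 change -0.65 ± 0.09, adjusted p = 4.81e-05, limma), and by -0.90 with a background correction (neqc). The call was lost under median scaling (log2 change -0.58, adjusted p = 0.0161). The dimmer probe, annotated with another transcript record (NM_001048177 in place of NM_008413), had 5.52, 5.56 and 5.65 in DAC/TSA cells, against 5.89, 5.73 and 5.91 in control cells. It was detected on no DAC/TSA array and on 2 control arrays. Its change of -0.27 ± 0.09 did not pass the test (adjusted p = 0.022, limma), but did with neqc (adjusted p = 0.00776) and with the replicate block (adjusted p = 0.00507), and the measured signals allow a level at least 1.10-fold lower.

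**Figure D2:**
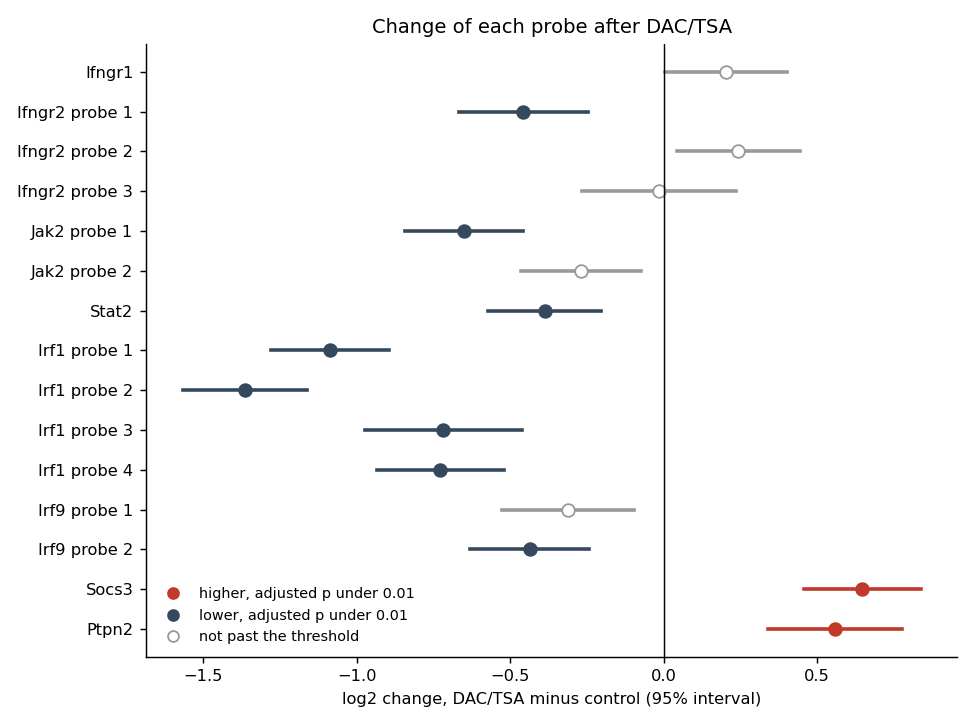
Log2 change of each probe, DAC/TSA minus control (horizontal axis), with its 95% interval from the limma fit. Filled points passed an adjusted p of 0.01 (red higher, dark blue lower) and open grey points did not. The 4 Irf1 probes lie between -1.36 and -0.72, Socs3 and Ptpn2 lie at 0.65 and 0.56, and the 3 Ifngr2 probes spread from -0.46 to 0.24.

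Irf1 was the member with the largest change and the clearest signal. Its brightest probe had log2 signals of 9.30, 9.19 and 9.19 in DAC/TSA cells, against 10.21, 10.37 and 10.36 in control cells. The lowest control array was 0.91 above the highest treated array, which is far more than the spread within either group. Irf1 was 2.12-fold lower by this probe (log2 change -1.09 ± 0.09, adjusted p = 6.24e-07, limma), and 93.3% of all probes tested changed by less in either direction. In BeadStudio units the brightest probe read 617, 554 and 708 in DAC/TSA cells, against 1070, 1184 and 1448 in control cells, so that the groups were also apart before normalisation.

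The other Irf1 probes changed in the same direction but by different amounts. Probe 2 had 7.86, 7.93 and 7.82 in DAC/TSA cells, against 9.29, 9.31 and 9.09 in control cells, and was 2.58-fold lower (log2 change -1.36 ± 0.09). Probe 3 had 6.37, 6.34 and 6.16 in DAC/TSA cells, against 7.14, 7.14 and 6.74 in control cells, and was 1.64-fold lower (-0.72 ± 0.12). Probe 4 had 6.44, 6.15 and 6.25 in DAC/TSA cells, against 7.05, 6.99 and 6.99 in control cells, and was 1.66-fold lower (-0.73 ± 0.10). All 4 passed the test, with adjusted p-values from 1.39e-07 to 0.000214 (limma), and none of them overlapped between groups. The fall was 0.65 larger on the log2 scale by probe 2 than by probe 3. These are the probes with the largest and the smallest fall and were compared for that reason. An exact permutation test of their differences gave p = 0.1, the smallest value it can give with 3 arrays per group, so that it cannot decide. With neqc, the log2 change was -1.12 for probe 1, -1.46 for probe 2, -0.96 for probe 3 and -0.98 for probe 4.

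The signals of Irf1 over the 6 arrays were most like those of Tfdp2, a partner of E2F factors, of Kmt5a, a histone H4 lysine methyltransferase, and of Tsc22d2. Pearson's r with the brightest Irf1 probe was 0.999 for each, as a description over 6 arrays that fall into the 2 groups. Of 8733 other named genes, 1540 had an r above 0.95, so that such an r does not set these genes apart. The log2 changes were -1.09 for Tfdp2, -1.07 for Kmt5a and -1.02 for Tsc22d2.

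Stat2, a subunit of the complex that binds ISRE, lay at the limit of detection in this line. Its single probe had log2 signals of 5.42, 5.38 and 5.47 in DAC/TSA cells, against 5.80, 5.86 and 5.77 in control cells. It was detected on no DAC/TSA array and on 2 of 3 control arrays, where the lowest detected signal of any probe was 5.74 to 5.85. It was tested only because the control arrays detected it, so that the filter favoured a lower level in DAC/TSA cells. The fitted log2 change of -0.39 ± 0.08 (adjusted p = 0.00165, limma) is therefore a description, and only a level at least 1.07-fold lower can be stated. The adjusted p was 0.0366 under median scaling and 0.0103 with DAC/TSA replicate 2 left out, so that the call was lost in both.

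Irf9, which gives that complex its DNA binding, was measured by a pair of probes. The brighter had 6.43, 6.19 and 6.48 in DAC/TSA cells, against 6.61, 6.67 and 6.75 in control cells. The groups were 0.13 apart, and the change of -0.31 ± 0.10 missed the threshold (adjusted p = 0.0169, limma). It passed with the replicate block (adjusted p = 0.00266) and without DAC/TSA replicate 3 (adjusted p = 0.00747), and before normalisation the groups overlapped (73.4 to 103.2 units in DAC/TSA cells, 88.7 to 114.1 units in control cells). The dimmer probe had 5.50, 5.70 and 5.53 in DAC/TSA cells, against 6.00, 6.05 and 5.99 in control cells. It was detected on no DAC/TSA array and on all 3 control arrays, and was at least 1.23-fold lower (fitted log2 change -0.44 ± 0.09, adjusted p = 0.00112, limma), a call lost under median scaling (adjusted p = 0.0288). Like Stat2, this probe was tested only through the control arrays.

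The inhibitors went the other way. Socs3 had log2 signals of 9.32, 9.24 and 9.34 in DAC/TSA cells, against 8.59, 8.75 and 8.63 in control cells. All treated arrays were above all control arrays, by 0.50 at the closest. Socs3 was 1.57-fold higher (log2 change 0.65 ± 0.09, adjusted p = 4.32e-05, limma). The change was of the same size under median scaling (0.66 ± 0.18), where it missed the threshold (adjusted p = 0.0185).

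Ptpn2 had 7.12, 6.87 and 6.88 in DAC/TSA cells, against 6.39, 6.51 and 6.29 in control cells. The groups were 0.36 apart, and Ptpn2 was 1.47-fold higher (log2 change 0.56 ± 0.10, adjusted p = 0.000415, limma). Its single probe was detected on all arrays, and its call held in each of the 12 alternatives tried, as did that of Irf1. Before normalisation Ptpn2 read 139.6, 116.7 and 140.4 units in DAC/TSA cells, against 77.0, 80.6 and 80.6 units in control cells.

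**Figure D3:**
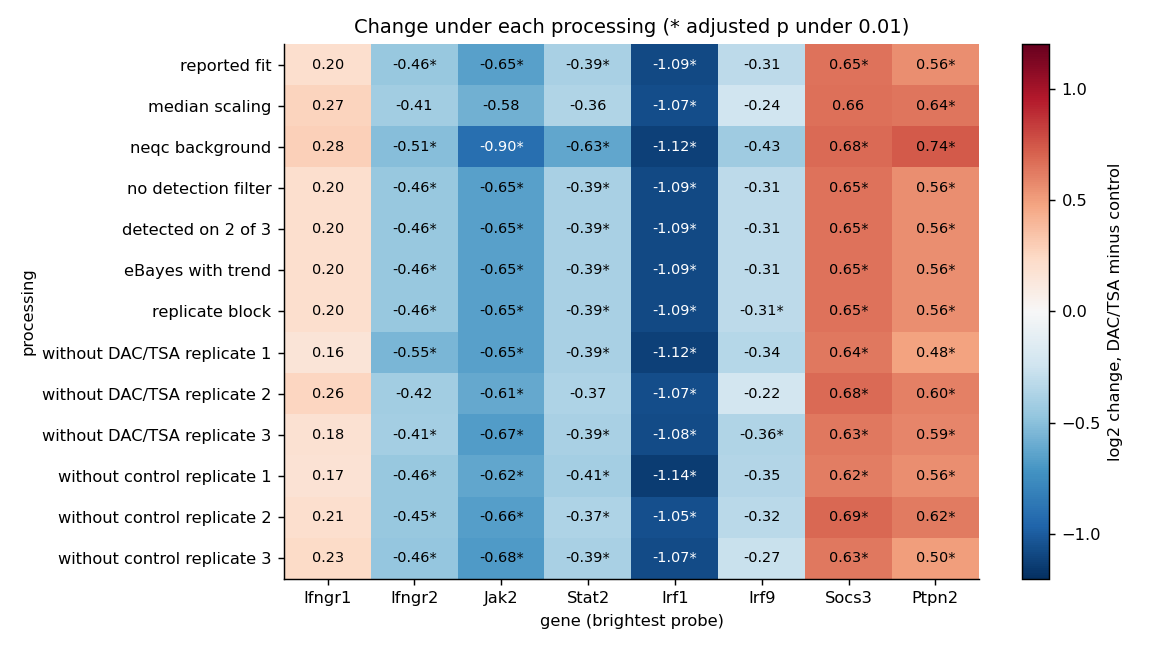
Log2 change (DAC/TSA minus control, colour and printed value) of the brightest probe of each gene under the reported fit and 12 alternatives, with an asterisk where the adjusted p was under 0.01. No gene changed direction, Irf1 and Ptpn2 kept the call throughout, and median scaling took it from Ifngr2, Jak2, Stat2 and Socs3.

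The genes around the axis were read from 6 lists of 104 entries, of which 62 genes were measured. Of these 22 were higher and 14 lower, or 58.1% called, against 52.8% of all named genes, and their median log2 change was -0.01. Counting only genes detected in both groups, by 1 array or more in each, 13 were higher and 14 lower. Of the 8033 named genes detected in both, 24.5% were higher and 26.9% lower, or 51.5% called. The lists differed in how their members went. Of the other interferon receptors and ligands only Ifnar2, a chain of the type I receptor, was measured (log2 change -0.02 ± 0.11), detected on 2 DAC/TSA arrays and 1 control array. Ifnar1 was not analysed here.

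Among 5 other Janus kinases and STATs 3 were lower and 0 higher, with a median of -0.34, against 25.8% lower and 27.0% higher of all named genes. Jak3, a kinase of cytokine receptors with the common γ chain, was 1.71-fold lower (-0.77 ± 0.09) and lower by its dimmer probe as well (-0.40 ± 0.11). Stat6, which answers interleukin-4, was 1.43-fold lower (-0.51 ± 0.11) and Stat5a 1.27-fold lower (-0.34 ± 0.09), both losing the call under median scaling. Without control replicate 1, without DAC/TSA replicate 2 or under median scaling the count was 1. Tyk2, the kinase of the type I receptor, had a log2 change of 0.10 ± 0.10, and Stat3 of 0.01 ± 0.13.

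Of 6 other interferon regulatory factors and their binding proteins 2 were higher and 2 lower, against the same 27.0% and 25.8% of named genes. Irf3, which induces interferon β after viral infection, was 1.96-fold higher (0.97 ± 0.11) and was higher by all 3 of its probes. Irf5 was detected on no control array, so that the filter favoured a higher level, and was at least 1.10-fold higher. Without Irf5, 1 of 5 genes was higher and 2 lower, against 24.5% and 26.9% of named genes detected in both groups. The brighter probe of Irf2bpl was 3.44-fold lower (-1.78 ± 0.13) and the dimmer one did not pass the test (-0.26 ± 0.10, adjusted p = 0.0449, limma), and the corepressor Irf2bp2 was 2.14-fold lower. Without control replicate 1, control replicate 2 or DAC/TSA replicate 2 only 1 gene was higher, and under median scaling 1 was lower and 0 higher. Irf2, an antagonist of Irf1 at many promoters, had a log2 change of -0.13 ± 0.12.

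Of 13 measured coactivators and partners of STATs and IRFs, 4 were lower and 1 higher, with a median of -0.20. That is 38.5% called, beside 51.5% of the named genes detected in both groups, as all 13 were. A difference from that share was not tested. The acetyltransferase Ep300 was 2.36-fold lower, and its relative Crebbp was 1.63-fold lower, and lower by its other probe too. The acetyltransferase Kat2a was 1.64-fold lower and Hcfc1, a scaffold of chromatin complexes, 1.95-fold lower. Only Ep300 kept the call under median scaling. The kinase Camk2d was 1.30-fold higher by its brightest probe, its other probes not passing the test, and lost its call under median scaling, with neqc (adjusted p = 0.0126, limma), with the mean of all probes, and without control replicate 1, DAC/TSA replicate 1 or DAC/TSA replicate 2.

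Of 16 other inhibitors of JAK-STAT signalling 5 were higher and 3 lower, with a median of -0.01. These 8 of 16 stand beside 52.8% of all named genes called. Of the 5, Usp18, Ptpn1 and Rnf125 were detected on no control array, so that the filter favoured a higher level. Leaving them out gives 2 higher and 3 lower of 13. Usp18, which shuts off the type I receptor, was at least 1.60-fold higher. Pdlim2, a nuclear ubiquitin ligase that destabilises STATs, was 1.91-fold higher (0.93 ± 0.13) and higher by all 4 probes. The phosphatase Ptpn1 was at least 1.18-fold higher. Stub1, a chaperone-bound ubiquitin ligase, was 1.53-fold higher by its brighter probe but lower by its other probe (log2 change -0.88 ± 0.12). Of the relatives of Socs3, Socs2 was 3.05-fold lower (-1.61 ± 0.09) and Socs4 1.90-fold lower (-0.93 ± 0.09), while Socs5 and Socs6 did not pass the test (0.26 ± 0.15 and -0.02 ± 0.11). The phosphatase Ptpn6 was 1.31-fold lower. Under median scaling 2 inhibitors were higher and 2 lower.

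**Figure D4:**
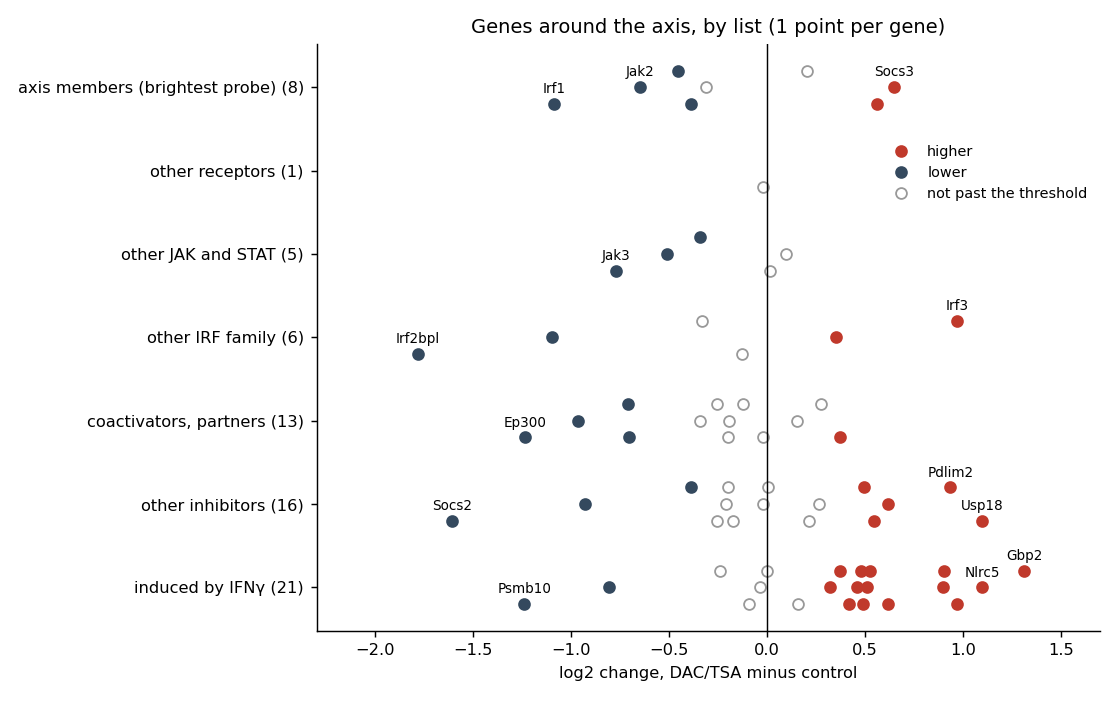
Fitted log2 change, DAC/TSA minus control (horizontal axis), of the brightest probe of each measured gene, with 1 row for the axis and 1 for each list (number of genes in parentheses). Filled points passed an adjusted p of 0.01 (red higher, dark blue lower). Of the 21 genes induced by IFNγ, 14 are higher, 5 of them detected on no control array, and Irf1 lies at -1.09.

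Of the genes known to be induced by IFNγ, 16 were detected in both groups, and 9 of these were higher and 2 lower, against 24.5% higher and 26.9% lower of the 8033 named genes detected in both. Of all 21 such genes measured out of 41 listed, 14 were higher and 2 lower, against 27.0% and 25.8% of all named genes, and their median log2 change was 0.46. Setting the undetected genes to their bounds gave 0.30, against a median of -0.02 over all named genes, to which no bounds were applied. Gbp2, an interferon-induced GTPase, was 2.48-fold higher (1.31 ± 0.10), the MHC class I transactivator Nlrc5 2.14-fold (1.10 ± 0.09, detected on 1 control array) and the peptide transporter subunit Tap2 1.96-fold. Bst2, which tethers budding virus, was 1.87-fold higher. The immunoproteasome subunit Psmb10 was 2.36-fold lower (-1.24 ± 0.10) by its brighter probe and lower by the other, and Casp1, the inflammatory caspase, was 1.75-fold lower. The remaining 5 of the 21 genes were detected on no control array and entered the test through the DAC/TSA arrays. For them the filter favoured a higher level. Under median scaling 6 of the 21 genes were higher and 2 lower.

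Markers of other cell types were read on the same arrays, beside 27.0% higher and 25.8% lower of all named genes. Of 14 leukocyte markers 6 were measured, of which 4 were higher, each detected on no control array, and 1 lower, detected on no DAC/TSA array. The filter favoured the direction of each of these called markers. The summed normalised signal of the 6 was 493 to 498 units in DAC/TSA cells, against 277 to 308 units in control cells. Of 8 epithelial markers 4 were measured, 2 of them higher. Of these Cldn4 was detected on no control array, so that the filter favoured a higher level. The summed signal of the 4 was 2521 to 3152 units in DAC/TSA cells, against 2268 to 2995 units in control cells. Of 9 mesenchymal markers 4 were measured, 0 higher and 1 lower. Their summed signal was nevertheless higher without overlap, at 4152 to 4291 units in DAC/TSA cells, against 3461 to 3996 units in control cells. Of 6 endothelial markers 1 was measured and did not pass the test. Their part in the changes of the axis was not tested.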

How the data were processed

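Illumina Mouse WG-6 bead arrays of 3 DAC/TSA and 3 control cultures of RVP3 cells were analysed, with groups and replicate numbers from the sample labels. The authors deposited probe signals as intensity on a linear scale for 45281 probes, extracted with BeadStudio, with detection p-values beside them. A second deposited file holds log2 values of 15131 probes. Quantile normalisation of all log2 signals, computed here, matched it to within 5e-14. It holds the probes detected on at least 2 of 3 arrays of a group. Between 14101 and 15056 probes were detected on the DAC/TSA arrays and between 13227 and 14261 on the control arrays (detection p-value of 0.01 or less), and the number of arrays limits the precision. The submitters' processing notes name limma. Array correlations were 0.992 to 0.997 within groups.

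Following the study's methods, probes detected on at least 1 array (16760) entered a two-sided limma test (version 3.58.1, lmFit and eBayes, under R 4.3.3). The model had no covariate, p-values were adjusted over all these probes by Benjamini-Hochberg, and the threshold was 0.01. Probes were named by GEO's platform annotation of that second file (a single symbol for 13126 probes, several for 6, none for 1999), updated through Entrez identifiers to GRCm38.p6 for 13113. Probes outside it carry no name here. The probe with the highest mean stood for a gene in counts over genes, and all member probes are reported. From each list, up to 4 called genes per direction were named, with Ifnar2 and Tyk2. Stat3, Irf2, Socs5 and Socs6 were added after their values were seen. Probe 1 is the brightest of a gene.

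A probe detected on no array of a group has a bound there. "At least" folds divide the brighter group's mean by a floor, which on each array is the lowest detected signal or the probe's own signal where that is higher. Same-numbered DAC/TSA and control arrays deviated together (r = 0.34, 0.24 and 0.65 over probes), and a fit with the replicate number as a block was also run. Numbers 1 and 2 were not told apart by this check, since control 2 with DAC/TSA 1 gave 0.37 and control 1 with DAC/TSA 2 gave 0.22. Replicate 3 correlated negatively with both other numbers (-0.53 to -0.34). Deviations from a group's mean cancel over its 3 arrays. The signs of the values with replicate 3, its own 0.65 included, therefore follow from those of numbers 1 and 2. The labels give the numbers but not what they stand for. Other alternatives were median scaling, neqc, other filters, a variance trend and leaving out each array. Counts over genes detected in both groups (by 1 array or more in each) were added after seeing the data. The members and lists were chosen with earlier results of these data known. No slide or scan was given in the sources used here.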

Additional observations from a re-analysis of the deposited data

How the results depend on the processing

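Of 96 alternative values for the 8 brightest probes, 88 kept direction and side of the threshold, 6 lost the call, 2 gained it and 0 reversed. Under median scaling, 3318 probes were called in place of 7674, with 2032 higher in place of 3748 and 1286 lower in place of 3926, and 15 pathway genes in place of 36, 8 higher and 7 lower in place of 22 and 14. In the reported fit, 13 pathway genes were higher when only genes detected in both groups were counted. The log2 changes that lost the call under median scaling were -0.41 for Ifngr2, -0.58 for Jak2, -0.36 for Stat2 and 0.66 for Socs3. Each had a larger SE than in the reported fit. With single arrays left out, Ifngr2 ranged from -0.55 to -0.41, Stat2 from -0.41 to -0.37 and Irf9 from -0.36 to -0.22. In the fit with a replicate block the change of Irf9 (-0.31) was called, as were the second probes of Ifngr2 (0.24) and Jak2 (-0.27), and no other member changed its call. Ifngr2 probe 3 turned direction under median scaling (0.032) and ranged from -0.11 to 0.065 with single arrays left out. Why these calls moved was not tested. Stat2 and the dimmer Jak2 and Irf9 probes lie at the detection limit, which limits their folds to bounds.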
